A study of Mus musculus with 18 samples.

Results

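The genes described here encode 41 lysosomal enzymes, membrane proteins, proton pump subunits and regulators. They were chosen by name, and a gene was measured if the annotation gave at least 1 probe set that gene's symbol alone. Of the 41 genes, 38 could be tested, among 13190 tested genes and 17097 genes named on the array; Idua, Neu1 and Cd63 had no probe set of their own and are named only. The cells were bone marrow derived macrophages, grown out of the marrow of 3 male C57BL/6 mice aged 10 weeks. Marrow was cultured for 1 week in 10% serum with recombinant human CSF1, the macrophage growth factor, at 10000 U/ml, and the cells were then replated in the same mixture. Cells were taken at baseline or after 1, 2, 4, 10 or 24 h in 100 nM dexamethasone, a synthetic glucocorticoid, with 3 Affymetrix arrays per group and 18 in all. Serum and CSF1 were thus shared by all groups, and every animal was male and of 1 strain. The baseline arrays had no dexamethasone, and time in culture after replating cannot be told apart from time in dexamethasone.

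The lysosome is the acidic compartment in which a macrophage digests what it engulfs and recycles its own worn parts. Soluble hydrolases cut proteins, sugars and lipids there. A proton pump in the membrane, the vacuolar ATPase, keeps the lumen acidic, heavily glycosylated membrane proteins line it, and transporters and channels return the products to the cytosol. Many of the genes carry a short promoter element read by transcription factors of the MiT/TFE family, of which Tfeb is the best known. Glucocorticoids act through a nuclear receptor that binds DNA and switches macrophages to an anti-inflammatory state with high uptake of dying cells.

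Values are log2 of the deposited intensity of the brightest probe set of each gene, and a change is the mean of the treated arrays minus the mean of the baseline arrays on that scale, ± the standard error from limma. A gene is said to rise or fall when limma's p, Benjamini-Hochberg adjusted over all tested genes of that comparison, was under 0.05. Replicate arrays of a group correlated at 0.995 to 0.997. The glucocorticoid targets Tsc22d3, Per1 and Dusp1 rose at 1 h by 1.80, 2.10 and 3.36, and Fkbp5 rose by 2.44 at 2 h. All 10 macrophage markers passed the filter on dim genes, 4 rose and 1 fell at 24 h. Their summed intensity was 20503 to 21012 at 24 h against 18192 to 19411 at baseline. The largest log2 differences at 24 h were in Mertk, 9.58 against 7.47, and Marco, 9.49 against 7.48. Fcgr1 averaged 8.89 against 9.20, and Csf1r 9.98 against 9.95. Of 6 fibroblast and stroma markers 0 passed. Of 9 neutrophil and granulocyte markers 3 fell at 24 h, namely Ngp, Ltf and S100a9. The summed intensity of the list was 603 to 730.1 at 24 h against 726 to 1188 at baseline. The granule genes Elane and Mpo averaged 3.34 and 3.78 log2 at 24 h against 3.42 and 4.08 at baseline, near the filter level of 3.45 to 3.50. Prtn3 and Camp averaged 3.79 and 3.95 at 24 h against 3.88 and 4.18, and Ctsg went the other way, 4.11 against 3.94. S100a8, S100a9 and Ngp lay well above the filter level, at 8.66, 8.30 and 7.03 at baseline. As a measure of RNA quality, the Gapdh control read higher at its 3′ than at its 5′ end by 0.20 ± 0.03 log2 at 24 h and by 0.06 ± 0.03 at baseline (SD, n = 3 each). The part of these 2 differences in the changes below was not tested.

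As among all tested genes, a minority of the lysosomal genes passed, more at 10 h and 24 h than earlier, in both directions. Of the 38 genes tested, 0 passed at 1 h and 0 at 2 h in limma, with 2 at an unadjusted p under 0.05 at each time; of all tested genes, 0.387% passed at 1 h and 2.15% at 2 h. At 4 h Npc1 rose and Atp6v1a and Atp6v0a1 fell, 3 of 38 or 7.89%, against 7.52% of all tested genes, of which 4.5% rose and 3.03% fell. At 10 h 5 rose and 5 fell, 26.3% of the lysosomal genes against 14.4% of all tested genes, of which 8.29% rose and 6.16% fell. At 24 h 5 rose and 3 fell, 21.1% against 12.7% of all tested genes, of which 7.38% rose and 5.34% fell. Lysosomal genes are bright on these arrays, and bright genes have smaller errors. Of the bright genes, those above the 75th percentile of mean intensity, 13.8% passed at 4 h, 25.7% at 10 h and 23% at 24 h, so the shares of the lysosomal genes at 10 h and 24 h were near those of bright genes. The 3 treated arrays lay all above or all below the 3 baseline arrays for 9 of the lysosomal genes at 4 h, 14 at 10 h and 17 at 24 h. Of all tested genes, 12.2% were all above and 10.1% all below at 4 h, and 14% and 11.6% at 10 h. At 24 h these shares were 15.3% and 12.6%. Of the 3298 bright genes, 1012 were apart in either direction at 4 h, 1176 at 10 h and 1349 at 24 h. At 4 h replicate arrays of the same number deviated together, and with the replicate number as a block 6 genes passed: Npc1 and Gusb rose, and Atp6v1a, Atp6v0a1, Ctsc and Lipa fell.

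The split between rises and falls depends on the scaling. In the deposited values the median change of all tested genes was 0.01 at both 10 h and 24 h. The median of the tested genes on an array was, however, higher by 0.119 at 10 h and 0.122 at 24 h than at baseline, so that centring each array on it moved the median change of all genes to -0.11 at both times. After centring, 1 of the 38 lysosomal genes rose and 5 fell at 4 h. At 10 h 2 rose and 11 fell, and at 24 h 3 rose and 8 fell. Of all 13190 tested genes, 363 rose and 879 fell at 4 h after centring. Their counts were 576 and 2050 at 10 h and 496 and 1912 at 24 h, so falls outnumbered rises over all genes too. The median change of the 38 at 24 h was -0.08, against 0.04 in the deposited values.

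**Figure D1:**
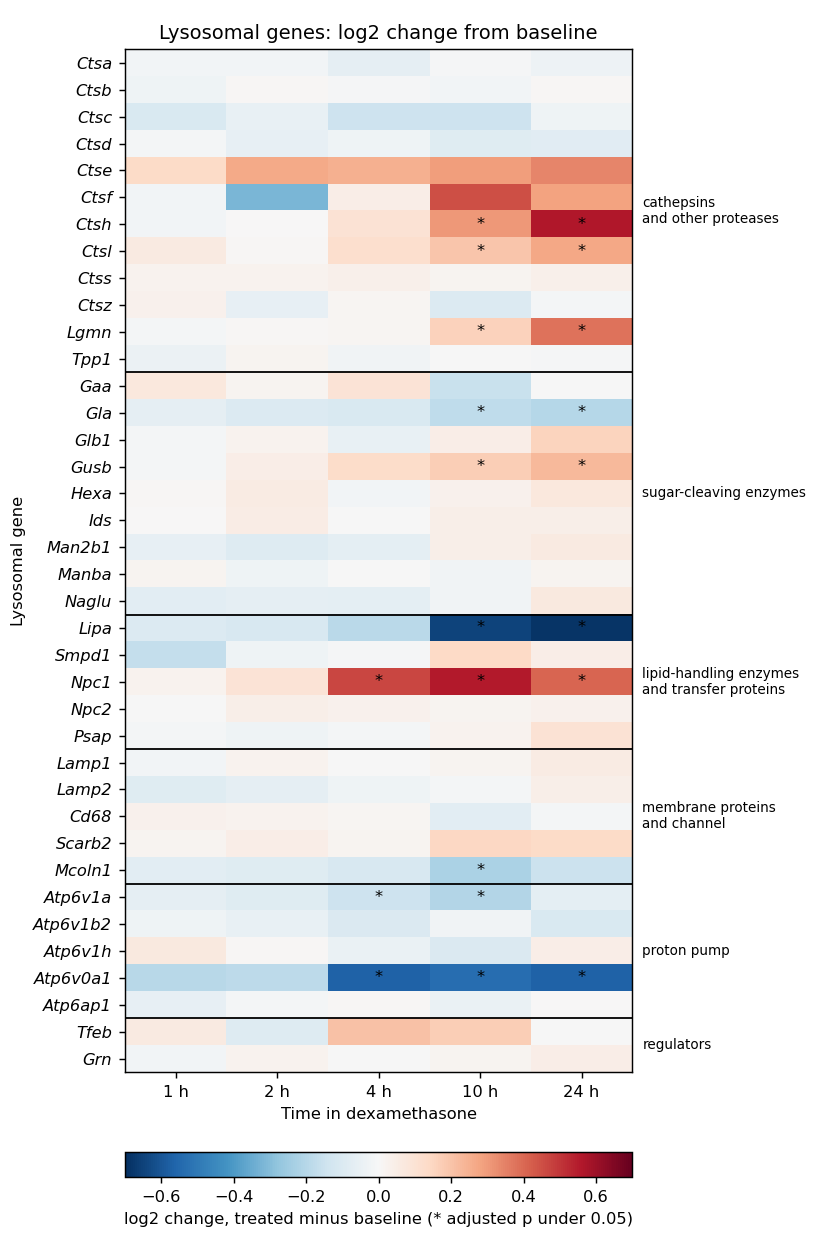
Heat map of the log2 change from baseline of the 38 tested lysosomal genes (rows, grouped by role) at 1, 2, 4, 10 and 24 h in dexamethasone (columns), red for higher and blue for lower than baseline; an asterisk marks an adjusted p under 0.05. Asterisks begin at 4 h with Npc1, Atp6v1a and Atp6v0a1, and most rows stay pale at every time.

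**Figure D2:**
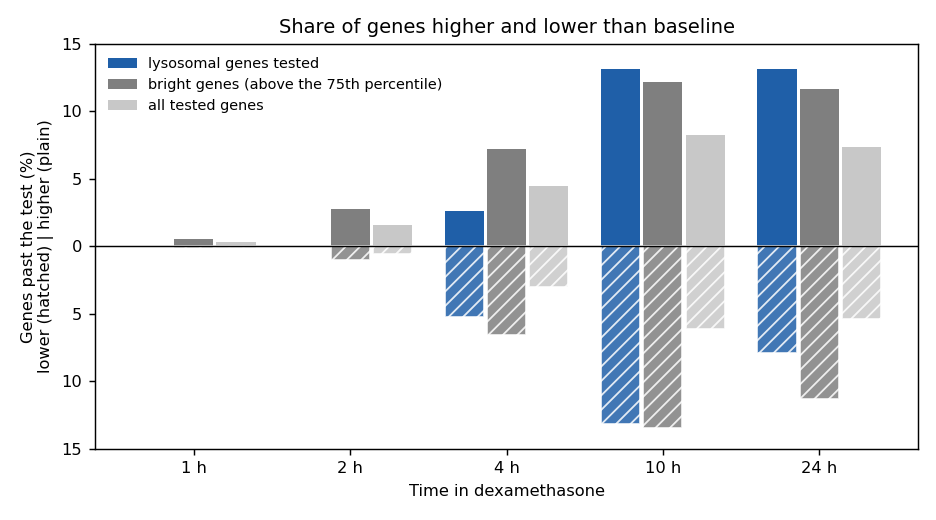
Share of genes past the test, in percent, higher (plain bars, upward) and lower (hatched bars, downward) than baseline at each time, for the 38 lysosomal genes, the bright genes above the 75th percentile and all tested genes. At 10 h the bars of the lysosomal genes have about the length of those of the bright genes, and at 24 h the hatched one is shorter.

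The promoters of these genes are shown because they differ in whether they hold the E-box core of the MiT/TFE element. RefSeq promoters of build GRCm38.p6, 250 bases before to 50 after the start, were at hand for 35 of the 41 genes; Ctsb, Ctse, Ctsh, Npc1, Atp6v1b2 and Atp6v1h were not among them. The core CACGTG, which reads the same on both strands, occurred in the promoters of 12 of the 35 genes, or 34.3%, against 11.1% of tested genes and 8.09% of all genes with a RefSeq promoter of the same length. The longer TCACGTGA, which contains CACGTG, occurred in 5 of the 35, or 14.3%, against 1.99% of tested genes and 1.12% of all genes. TCACGTGA with a further G before and C after it occurred in 0 of the 35 and in 0.706% of tested genes. The glucocorticoid receptor palindrome, AGAACA and TGTTCT with 3 free bases between and no mismatch, also occurred in 0 of the 35 and in 0.0188% of tested genes. Of the genes that passed the test at some time, 8 had a promoter here and 5 of them held CACGTG; of those that passed at no time, 7 of 24 held it. Windows around the match are given below 5′ to 3′ on the strand of the gene, with the matched letters in capitals. The first 5 hold TCACGTGA: Gla, Mcoln1 and Atp6v1a fell at 10 h, and Ctsa and Ctsd passed at no time. The last 2, Lgmn and Ctsl, hold only the core and rose. Lamp1, Glb1, Naglu, Gaa and Ctsf, not printed, also hold only the core. They passed at no time without the replicate block.
Gla, chrX:134601186-134601255, minus strand: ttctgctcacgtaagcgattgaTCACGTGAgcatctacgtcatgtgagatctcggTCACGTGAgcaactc
Mcoln1, chr8:3500433-3500520, plus strand: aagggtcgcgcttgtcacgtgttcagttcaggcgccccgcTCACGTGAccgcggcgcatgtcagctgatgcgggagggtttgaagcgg
Atp6v1a, chr16:44139344-44139431, minus strand: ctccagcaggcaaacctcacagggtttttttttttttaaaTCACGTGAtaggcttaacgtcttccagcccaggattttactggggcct
Ctsa, chr2:164833720-164833784, plus strand: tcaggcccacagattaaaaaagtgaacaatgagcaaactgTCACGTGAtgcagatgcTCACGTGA
Ctsd, chr7:142387879-142387966, minus strand: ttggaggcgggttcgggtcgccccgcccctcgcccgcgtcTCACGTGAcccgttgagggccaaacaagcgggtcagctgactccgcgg
Lgmn, chr12:102439096-102439181, minus strand: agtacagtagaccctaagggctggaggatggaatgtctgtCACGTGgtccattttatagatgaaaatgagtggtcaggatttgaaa
Ctsl, chr13:64370711-64370770, minus strand: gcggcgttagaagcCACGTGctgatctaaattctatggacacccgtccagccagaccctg
The first capital lies at base -228 of Gla, -46 of Mcoln1, -132 of Atp6v1a, -13 of Ctsa, -99 of Ctsd, -49 of Lgmn and -236 of Ctsl, where -1 is the base before the start. The window of Mcoln1 holds a further core in small letters. Genes with the same 8 letters thus fell at 10 h or did not pass. Those with only the core rose or did not pass, and the match says nothing of whether a factor was bound.

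Among the proteases 3 of 12 rose at 24 h and 0 fell, and the same count held at 10 h. Of all tested genes 12.7% and 14.4% passed at these times. The shares of the bright genes, 23% and 25.7%, were near the 25% of the proteases. The one-sided split depends on the scaling: with arrays centred, Ctsh and Lgmn rose and Ctsa and Ctsd fell at 24 h, and Ctsh rose and Ctsc, Ctsd and Ctsz fell at 10 h. After centring, 496 of all 13190 tested genes rose and 1912 fell at 24 h, and 576 rose and 2050 fell at 10 h. Ctsh encodes cathepsin H, a cysteine protease that trims proteins from their amino end. It read 10.69, 10.72 and 10.69 at 24 h, against 10.13, 10.20 and 10.08 at baseline. All 3 arrays at 24 h lay above every other array of the series for this gene, which read 10.39, 10.50 and 10.43 at 10 h and at most 10.30 before that. Ctsh rose by 0.30 ± 0.05 at 10 h (limma, adjusted p = 0.000109) and by 0.56 ± 0.05 at 24 h (adjusted p = 1.06e-08), a factor of 1.47. In bulk samples such as these, fewer cells of a type and less RNA per cell cannot be told apart, for this gene and all that follow.

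Lgmn encodes legumain, which cuts after asparagine and activates several cathepsins. Its arrays read 11.47, 11.54 and 11.44 at 24 h, against 11.10, 11.16 and 11.04 at baseline, and 11.18, 11.31 and 11.29 at 10 h. The arrays at 10 h lay between those at baseline and at 24 h without overlap, while all arrays from 1 h to 4 h, at 11.06 to 11.15, lay within the baseline range. Lgmn rose by 0.16 ± 0.04 at 10 h (limma, adjusted p = 0.0165) and by 0.38 ± 0.04 at 24 h (adjusted p = 7.18e-07), a factor of 1.3. With arrays centred the 10 h difference was 0.04 (adjusted p = 0.678), and the 10 h call was also lost without 10 h replicate 2 or 3 or baseline replicate 3. Ctsl, cathepsin L, a cysteine endopeptidase that degrades proteins in the lumen, read 13.09, 13.07 and 13.05 at 24 h, against 12.87, 12.72 and 12.82 at baseline. The treated arrays again lay above all baseline arrays. Ctsl rose by 0.20 ± 0.05 at 10 h (limma, adjusted p = 0.0119) and by 0.27 ± 0.05 at 24 h (adjusted p = 0.000766). With arrays centred neither call held, at 0.08 (adjusted p = 0.388) for 10 h and 0.15 (adjusted p = 0.0882) for 24 h, and the 10 h call was lost without baseline or 10 h replicate 2. The promoters of Lgmn and Ctsl are among those printed above.

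The other 9 proteases passed at no time against baseline in the deposited values without the replicate block. Ctsb, cathepsin B, the brightest of them, stayed within 13.16 to 13.32 on all 18 arrays. It read 13.28, 13.25 and 13.25 at 24 h, against 13.24, 13.30 and 13.22 at baseline, a difference of 0.01 with a 95% interval of -0.07 to 0.08. Ctss, cathepsin S, which cuts the invariant chain on the way to antigen presentation, differed by 0.04 at 24 h (interval -0.02 to 0.10). The aspartic protease Ctsd differed by -0.08 at 24 h (limma, adjusted p = 0.179). Ctsc, the dipeptidyl peptidase that activates granule proteases, differed by -0.14 at 4 h (adjusted p = 0.106, or 0.0436 with the replicate block) and by -0.03 at 24 h. Ctse and Ctsf, at 4.07 to 5.16 log2, were closer to the filter level than the rest. Ctsf differed by 0.45 ± 0.17 at 10 h (adjusted p = 0.0828), although it passed the F test over all 5 times together (adjusted p = 0.0234).

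Of 9 sugar-cleaving enzymes 1 rose and 1 fell at 10 h and again at 24 h. Of all tested genes 14.4% passed at 10 h and 12.7% at 24 h, and of the bright genes 25.7% and 23%. Gusb, beta-glucuronidase, which takes glucuronic acid off glycosaminoglycans, read 12.39, 12.37 and 12.38 at 24 h, against 12.14, 12.16 and 12.16 at baseline. The groups did not overlap, and neither did they at 4 h and 10 h, where it read 12.30, 12.31 and 12.23 and then 12.20, 12.35 and 12.42. Gusb rose by 0.17 ± 0.04 at 10 h (limma, adjusted p = 0.00607) and by 0.22 ± 0.04 at 24 h (adjusted p = 0.000447). With arrays centred neither call held, at 0.05 (adjusted p = 0.571) for 10 h and 0.10 (adjusted p = 0.231) for 24 h, and the 10 h call was lost without 10 h replicate 3. At 4 h it differed by 0.13 ± 0.04 (adjusted p = 0.0629, or 0.0309 with the replicate block). Gla, alpha-galactosidase A, the enzyme missing in Fabry disease, moved the other way. It read 10.67, 10.79 and 10.58 at 24 h, against 10.91, 10.93 and 10.80 at baseline, so that the highest treated array lay just under the lowest baseline array. At 10 h it read 10.80, 10.69 and 10.62. Gla fell by 0.18 ± 0.05 at 10 h (limma, adjusted p = 0.0271) and by 0.20 ± 0.05 at 24 h (adjusted p = 0.0143). Without any 1 of 4 arrays it no longer passed at 24 h; leaving out 24 h replicate 3 gave the weakest value, a fall of 0.15 (adjusted p = 0.115), and the other 3 were baseline replicates 1 and 2 and 24 h replicate 1. Its 10 h call was lost without baseline replicate 1 or 2 or 10 h replicate 2 or 3.

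The remaining 7 sugar-cleaving enzymes passed at no time without the replicate block, with differences of at most 0.16 at 24 h. Hexa, which encodes the alpha subunit of beta-hexosaminidase and was the brightest of them, read 12.41, 12.44 and 12.43 at 24 h, against 12.33, 12.36 and 12.36 at baseline. Its treated arrays lay above the baseline arrays, yet the difference of 0.08 ± 0.04 did not pass (limma, adjusted p = 0.209). Glb1, the lysosomal beta-galactosidase, had the lowest unadjusted limma p against baseline of the lysosomal genes that passed at no time, 0.00912. Its difference at 24 h was 0.16 ± 0.06 (limma, adjusted p = 0.0643, or 0.0378 with the replicate block). Gaa, Ids, Man2b1, Manba and Naglu, which act on glycogen, glycosaminoglycans and the sugar chains of glycoproteins, differed by at most 0.07 at 24 h.

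Of 5 lipid-handling genes 1 rose and 1 fell at 10 h and 24 h, and 1 rose at 4 h. Of all tested genes 7.52% passed at 4 h, 14.4% at 10 h and 12.7% at 24 h. Of the bright genes 13.8%, 25.7% and 23% passed at these times. The 5 lipid-handling genes held the largest fall of the 38 genes at 24 h. Lipa encodes lysosomal acid lipase, which frees cholesterol and fatty acids from the lipids a macrophage takes up. Its arrays read 11.67, 11.71 and 11.41 at 24 h, against 12.33, 12.37 and 12.14 at baseline. At 10 h they read 11.84, 11.64 and 11.42. All 6 arrays at 10 h and 24 h lay below every array at the earlier times, for which the lowest reading was 11.92. Lipa fell by 0.65 ± 0.09 at 10 h (limma, adjusted p = 1.75e-05) and by 0.68 ± 0.09 at 24 h (adjusted p = 8.77e-06), a level 1.61-fold lower. At 4 h it differed by -0.19 (limma, adjusted p = 0.287, or 0.00199 with the replicate block). With arrays centred it differed by -0.28 at 4 h and passed (limma, adjusted p = 0.048).

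Npc1 encodes the membrane protein that passes cholesterol out of the lysosome. It read 10.59, 10.59 and 10.56 at 4 h, against 10.20, 10.15 and 9.98 at baseline. At 10 h it read 10.53, 10.79 and 10.68, and at 24 h 10.50, 10.51 and 10.54. Arrays from 4 h on lay above all arrays at baseline, 1 h and 2 h, the highest of which read 10.29. Npc1 rose by 0.47 ± 0.06 at 4 h (limma, adjusted p = 6.25e-06), by 0.55 ± 0.06 at 10 h (adjusted p = 3.35e-07), a factor of 1.47, and by 0.41 ± 0.06 at 24 h (adjusted p = 3.33e-05). Its soluble partner Npc2, which binds cholesterol and hands it to Npc1, differed by 0.03 at 24 h (interval -0.05 to 0.11). Psap, the precursor of the saposins that help hydrolases reach sphingolipids, was the brightest gene of this role that did not pass. It read 13.06, 13.15 and 13.06 at 24 h, against 12.93, 13.05 and 12.99 at baseline. Its difference of 0.10 ± 0.04 had an adjusted p of 0.0687 in limma, or 0.0293 with the replicate block. Smpd1, acid sphingomyelinase, differed by 0.05 ± 0.09 at 24 h.

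Of 5 membrane proteins 0 passed at 24 h in limma without the replicate block, with 1 at an unadjusted p under 0.05, and 1 fell at 10 h. Of all tested genes 12.7% passed at 24 h and 14.4% at 10 h. With arrays centred 1 of the 5 fell at 24 h, Mcoln1, and 2 fell at 10 h, Mcoln1 and Cd68. Centred falls over all 13190 tested genes numbered 1912 at 24 h and 2050 at 10 h. The lysosomal coat proteins Lamp1 and Lamp2 differed by 0.06 and 0.04 at 24 h. Cd68, a glycoprotein abundant in macrophage lysosomes, read 12.76, 12.84 and 12.75 at 24 h, against 12.82, 12.71 and 12.84 at baseline; the groups overlapped and the difference was -0.01 (interval -0.10 to 0.07). At 10 h, with arrays centred, Cd68 fell by 0.19 (limma, adjusted p = 0.0126, against 0.275 in the deposited values). Scarb2, the membrane protein that carries glucocerebrosidase to lysosomes, differed by 0.14 ± 0.05 at 24 h (limma, adjusted p = 0.0962, or 0.0339 with the replicate block). Mcoln1, a calcium channel of the lysosomal membrane, read 8.64, 8.48 and 8.37 at 10 h, against 8.70, 8.79 and 8.65 at baseline. The highest array at 10 h lay just under the lowest at baseline, and the fall of 0.22 ± 0.07 had an adjusted p of 0.0482 in limma, just inside the threshold. At 24 h it did not pass in the deposited values (difference -0.15, adjusted p = 0.22) and passed with arrays centred (-0.27, adjusted p = 0.0251). Leaving out any 1 of 15 of the 18 arrays ended the call at 10 h.

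Of 5 proton pump genes 0 rose and 2 fell at 4 h and 10 h, and 1 fell at 24 h. Over all tested genes 3.03% fell at 4 h, 6.16% at 10 h and 5.34% at 24 h. With arrays centred the falls of the 5 pump genes numbered 2 at 4 h, 4 at 10 h and 3 at 24 h. Atp6v1h (limma, adjusted p = 0.0169) and Atp6ap1 (adjusted p = 0.0485) were added at 10 h, and Atp6v1a (adjusted p = 0.0324) and Atp6v1b2 (adjusted p = 0.0137) at 24 h. Of all 13190 tested genes, 879 fell at 4 h, 2050 at 10 h and 1912 at 24 h with arrays centred. Atp6v0a1 encodes an isoform of the large membrane subunit through which protons pass. It read 8.22, 8.21 and 8.28 at 4 h, against 8.75, 8.86 and 8.80 at baseline, 8.46, 8.13 and 8.21 at 10 h and 8.31, 8.15 and 8.25 at 24 h. Arrays from 4 h on lay below all earlier arrays. At 1 h and 2 h Atp6v0a1 differed by -0.20 and -0.18 (limma, adjusted p = 0.905 and 0.401), and those arrays also lay below all baseline arrays. Atp6v0a1 fell by 0.56 ± 0.08 at 4 h (limma, adjusted p = 1.13e-05), by 0.54 ± 0.08 at 10 h (adjusted p = 1.6e-05) and by 0.57 ± 0.08 at 24 h (adjusted p = 7.61e-06), a level 1.48-fold lower. Atp6v1a encodes the subunit that hydrolyses ATP. It read 11.89 on all 3 arrays at 10 h, against 12.05, 12.13 and 12.11 at baseline, and 11.98, 12.05 and 12.06 at 24 h. The groups were apart at 4 h and 10 h and overlapped at 24 h. Atp6v1a fell by 0.15 ± 0.04 at 4 h (limma, adjusted p = 0.0193) and by 0.21 ± 0.04 at 10 h (adjusted p = 0.000499), and differed by -0.07 at 24 h (adjusted p = 0.282). Its 4 h call was lost without 4 h replicate 1 or 2 or baseline replicate 2 or 3. Atp6ap1, an accessory subunit used in assembly of the pump and the brightest that passed at no time in the deposited values, differed by 0.00 at 24 h (interval -0.08 to 0.09), with 11.86, 11.85 and 11.89 at 24 h against 11.81, 11.90 and 11.89 at baseline. Atp6v1b2 and Atp6v1h, subunits of the part that faces the cytosol, differed by -0.11 and 0.05 at 24 h and did not pass in the deposited values.

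Neither regulator passed at any time in limma, and 0 had an unadjusted p under 0.05 at 24 h. Grn encodes progranulin, a secreted and lysosomal protein needed for normal lysosome function. It read 12.55, 12.49 and 12.52 at 24 h, against 12.46, 12.46 and 12.50 at baseline, with overlapping groups and a difference of 0.05 (interval -0.03 to 0.13). Tfeb read 5.38, 5.38 and 5.04 at 24 h, against 5.32, 5.28 and 5.21 at baseline. The groups overlapped, and over all 18 arrays it spanned 5.04 to 5.61. Its difference at 24 h had a wide interval, -0.28 to 0.28.

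**Figure D3:**
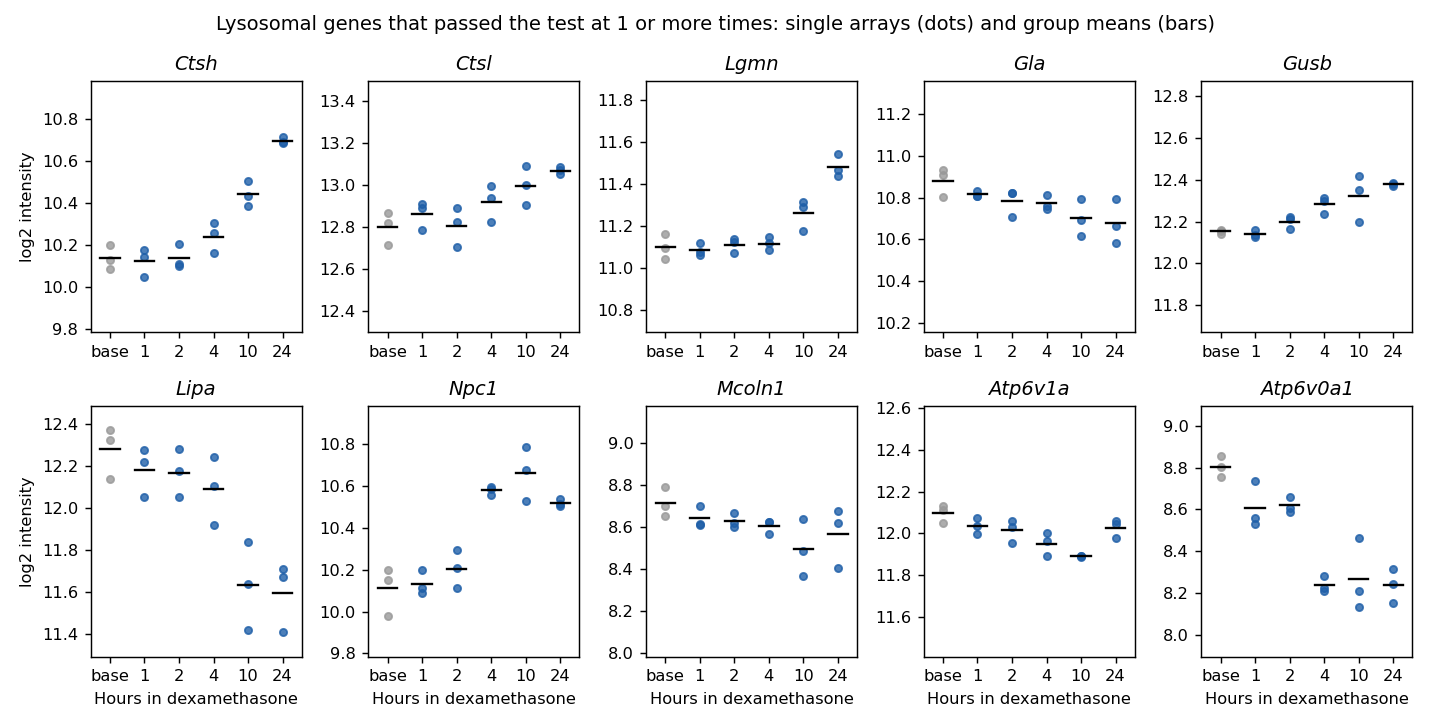
Log2 intensity of the 10 lysosomal genes that passed the test at 1 or more times, on each of the 18 arrays (dots) with the group mean (bars), from baseline through 1, 2, 4, 10 and 24 h in dexamethasone; all panels span the same log2 range. Npc1 stands higher and Atp6v0a1 lower from 4 h on, Lipa lower from 10 h on, and Ctsh and Lgmn are highest at 24 h.

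In total, without the replicate block, 10 of the 38 genes, 26.3%, passed at 1 or more times, against 20.5% of all tested genes. The other 28 passed at none. With the block Ctsc, Glb1, Psap and Scarb2 passed as well. It is not used in the counts that follow. The F test over all 5 times called 9 genes, 23.7%, against 17.4% of all tested genes and 32.4% of the bright genes; it left out Gla and Mcoln1 and added Ctsf. At 24 h the 95% interval of the change lay wholly within a 1.2-fold difference in either direction for 25 of the 38 genes, or 65.8%, which is near the 65.1% of the bright genes and above the 23.9% of all tested genes. The 13 others were the 8 that passed at that time together with Ctse, Ctsf, Glb1, Mcoln1 and Tfeb. The median size of the change at 24 h was 0.0672 log2 in the lysosomal genes, 0.0932 in the bright genes and 0.121 over all tested genes.

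**Figure D4:**
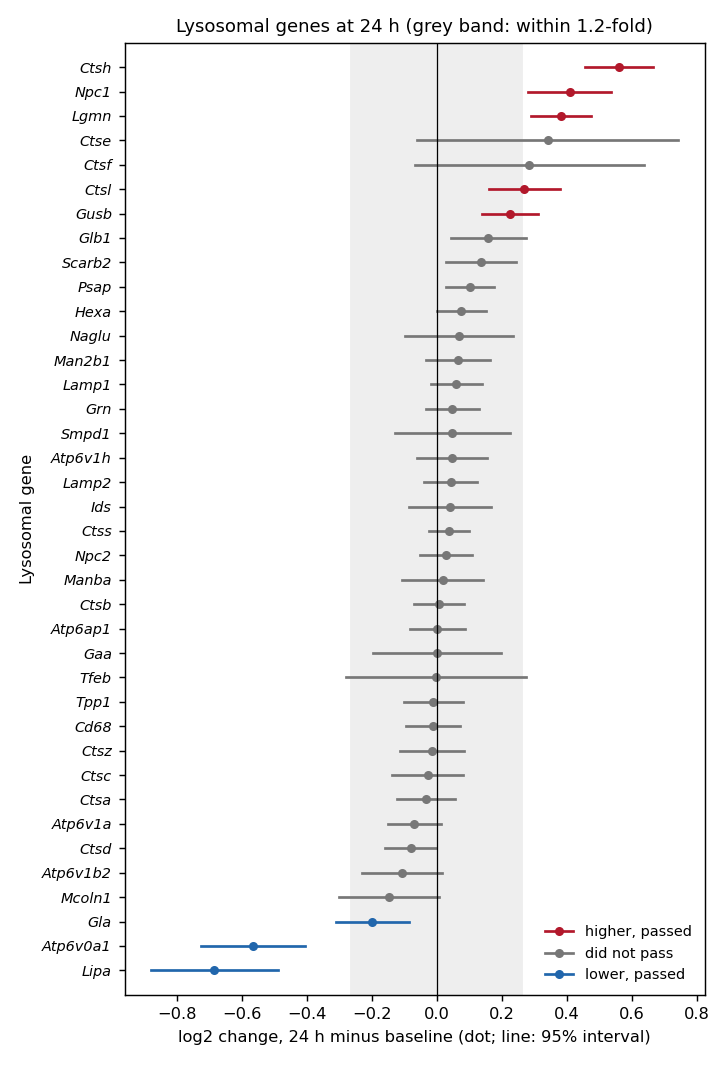
Change at 24 h (dot, log2, 24 h minus baseline) with its 95% interval (line) for the 38 lysosomal genes, from the largest rise at the top to the largest fall at the bottom; the grey band spans a 1.2-fold difference. The intervals of 25 genes lie within the band, and those of Tfeb, Ctse and Ctsf are the widest.

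Neighbouring times were compared to see when the genes moved. From 1 h to 2 h 0 of 38 passed in limma, with 0 at an unadjusted p under 0.05, against 1.12% of all tested genes. From 2 h to 4 h 2 passed, against 1.9%: Npc1 rose by 0.38 and Atp6v0a1 fell by 0.38. From 4 h to 10 h 2 passed, against 4.18%: Lipa fell by 0.46 and Ctsh rose by 0.20. From 10 h to 24 h 2 passed, against 2.16%: Ctsh rose by 0.26 and Lgmn by 0.22. By this test on the brightest probe set, the cholesterol transporter and the pump subunit changed between 2 h and 4 h. The lipase changed between 4 h and 10 h, although its difference of -0.19 at 4 h passed with the replicate block and, at -0.28, with arrays centred. Ctsh changed in both of the later steps and Lgmn between 10 h and 24 h, although Lgmn was already above baseline at 10 h. Arrays of Atp6v0a1 already lay below all baseline arrays at 1 h and 2 h without passing. Its second probe set dropped most between 4 h and 10 h. With arrays centred the 4 h to 10 h step of Ctsh (0.17, adjusted p = 0.119) and the step of Lgmn (0.22, adjusted p = 0.0599) no longer passed.

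Of the 10 genes that passed, 7 had more than 1 probe set. All 3 probe sets of Lipa were lower at 24 h, by -0.68 for the brightest and -0.60 and -0.76 for the others. Of the 4 of Atp6v0a1, the brightest differed by -0.57 and the next by -0.89 at 24 h, whereas the 2 dim ones differed by -0.01 and 0.09. The second brightest differed by -0.15 at 1 h, -0.32 at 2 h, -0.48 at 4 h and -1.01 at 10 h. Its largest drop thus came after 4 h, unlike that of the brightest. The second probe set of Ctsl differed by 0.92 at 10 h and 0.31 at 24 h, against 0.20 and 0.27 for the brightest, so their courses were unlike after 10 h. Both probe sets of Gusb, Gla and Atp6v1a each shared a sign at 10 h and 24 h. For Mcoln1, 2 probe sets, at mean log2 intensities of 8.61 and 7.52, differed by -0.22 and -0.15 at 10 h. A dim one, at 4.30 and closer to the filter level, differed by 0.46. The sign of Mcoln1 therefore depends on whether the dim probe set is used.

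**Figure D5:**
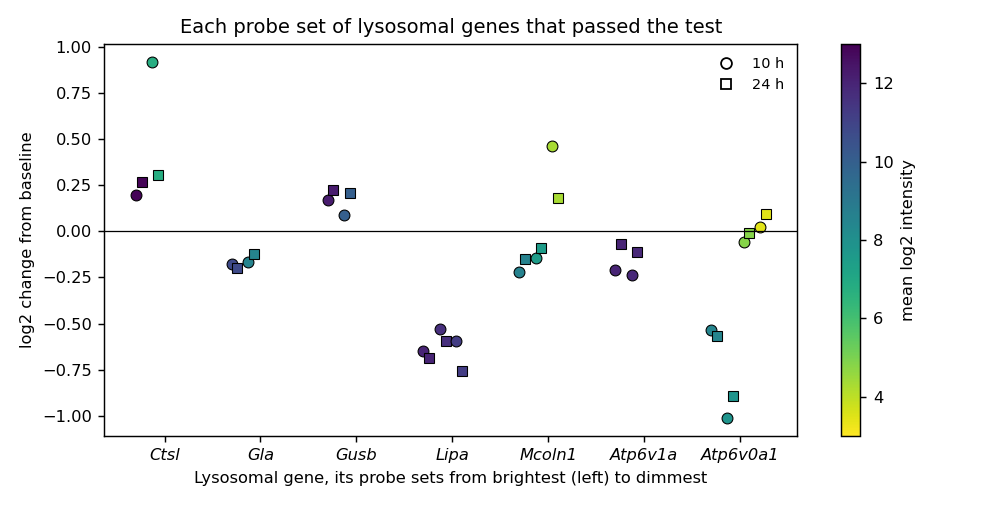
Change from baseline at 10 h (circles) and 24 h (squares) of each probe set of the 7 lysosomal genes that passed and had several, with the brightest probe set of a gene at the left and colour for the mean log2 intensity. The probe sets of Lipa, Gla and Atp6v1a lie below 0, those of Ctsl and Gusb above it, and those of Mcoln1 and Atp6v0a1 lie on both sides.

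Lists of other lysosomal genes were read beside the 38. Of 29 other hydrolases tested 7 rose and 0 fell at 24 h, among them Hyal1, a hyaluronidase, by 0.54 ± 0.11 (limma, adjusted p = 0.000731) and Acp2, the lysosomal acid phosphatase, by 0.40 ± 0.07. Of 24 other membrane proteins 5 rose and 2 fell. Cd164, a sialomucin, rose by 0.60 ± 0.05 (adjusted p = 1.33e-09) and Slc36a1, an amino acid transporter driven by protons, by 0.43 ± 0.10, while Slc15a3, a histidine and peptide transporter, fell by 0.74 ± 0.08 (adjusted p = 1.58e-07) and the cation channel Mcoln3 by 0.59 ± 0.11. Of 10 other pump subunits 0 rose and 2 fell at 24 h, Atp6v0d2 by 0.52 ± 0.17 and Atp6v1f by 0.16 ± 0.04. Atp6v1d, Atp6v1f and Atp6v0b fell at 10 h. Of 15 sorting genes 3 rose and 0 fell: Gnptab, which makes the mannose 6-phosphate address label of hydrolases, by 0.52 ± 0.07 (adjusted p = 1.02e-05), the sorting receptor Sort1 by 0.37 ± 0.09, and Clta, a clathrin light chain, by 0.12 ± 0.04. Of 18 MiT/TFE and nutrient sensing genes 1 rose and 1 fell, Tfec, a relative of Tfeb, by 0.28 ± 0.07 and the Rag GTPase gene Rragc by 0.13 ± 0.04. Of 6 genes for inhibitors of cathepsins and other proteases, Serpinb6a rose by 0.20 ± 0.04, and Cst7, which encodes cystatin F, and Serpinb9 fell by 0.80 ± 0.14 and 0.38 ± 0.12. Over the 102 other lysosomal genes 17 rose and 7 fell at 24 h, 23.5% of them, and 13 rose and 10 fell at 10 h, 22.5%. Of all tested genes 12.7% passed at 24 h and 14.4% at 10 h, and of the bright genes 23% and 25.7%, so these shares were near those of the bright genes. The counts at 10 h were 4 up and 1 down for the other hydrolases, 5 and 3 for the membrane proteins, 0 and 3 for the pump subunits, 2 and 0 for the sorting genes and 2 and 3 for the MiT/TFE and nutrient sensing genes. For the inhibitors 0 passed at 10 h in limma, with 2 at an unadjusted p under 0.05.

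With arrays centred, the rises of Ctsh, Lgmn and Npc1 at 24 h still passed, at 0.44, 0.26 and 0.29 log2, as did those of Ctsh and Npc1 at 10 h. The rises of Ctsl and Gusb at both times and of Lgmn at 10 h did not. The falls of Lipa, Atp6v0a1 and Gla at 24 h still passed, at -0.81, -0.69 and -0.32, and no gene that had passed changed sign. The other hydrolases then had 4 rises and 4 falls at 24 h, the other membrane proteins 2 and 5, the other pump subunits 0 and 4, the sorting genes 2 and 2, the MiT/TFE and nutrient sensing genes 0 and 5, and the inhibitors 0 and 3. Over all 13190 tested genes, 496 rose and 1912 fell at 24 h after centring. Clta, Tfec and Serpinb6a no longer passed.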

How the data were processed

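RNA of 18 macrophage samples was biotin labelled and hybridised to 1 array each. The authors deposited linear intensity values, 1 for each probe set of an array, between 5.37 and 15224. Per the submitters' processing notes they come from RMA in affy; versions are not given in the sources used here. RMA gives all arrays 1 distribution, which hides any shift common to the majority of genes. Log2 of the deposited values was taken here. Of 45141 probe sets 28898 had 1 gene symbol, 551 several and 15588 none. In baseline replicate 1, 211 probe sets held evenly stepped values and were left out on all arrays; 0 of them belonged to the lysosomal genes. The brightest of a gene's probe sets stood for it, and a gene was tested where 3 or more of the 18 arrays read at or above the 40th percentile of their own array.

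Tests used limma 3.58.1 in R 4.3.3 (lmFit over all 18 arrays with 1 mean per group, eBayes with an intensity trend), two-sided. Intervals are 95%. The number of arrays limits the precision. The series' design text calls the arrays of a group biological replicates, but no label ties a number to a mouse, so p-values measure the spread between arrays. Deviations of same-numbered arrays correlated at 0.138 to 0.240 for 4 h with baseline, and at 0.164 to 0.290 for 1 h. Every pair was over 0.1 there, as from 1 h to 2 h. Pairs were positive but not all over 0.1 at 2 h (0.0977 to 0.212), 10 h (0.0281 to 0.164) and 24 h (0.0266 to 0.175). The block is therefore given beside the results at 4 h and changed no call at 1 h or from 1 h to 2 h. At 10 h and 24 h it kept every call, and the genes it added are named with their values.

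Arrays are given for each gene that passed and for the brightest of each role that did not; of each other list, for the 2 largest rises and falls at 24 h, changes are given, with any further gene, Atp6v1d, Atp6v0b and Clta among them, named after its values were seen. The genes, lists and tests were chosen with earlier results of these data known. Alternatives covered the block, probe set, filter, trend, arrays, centring, stepped values, adjustment and each array left out. The fit was tested on simulated data.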

Additional observations from a re-analysis of the deposited data

Results flagged for a closer look

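In 6 cases the change from baseline differed between neighbouring times, by limma's test of the difference. Npc1 was higher at 4 h than at 2 h by 0.38 (adjusted p = 0.000795). Atp6v0a1 was lower at 4 h than at 2 h, by -0.38 (adjusted p = 0.00699). Lipa was lower at 10 h than at 4 h, by -0.46 (adjusted p = 0.00424), and Ctsh was higher by 0.20 (adjusted p = 0.0209). At 24 h Ctsh and Lgmn were higher than at 10 h by 0.26 (adjusted p = 0.00522) and 0.22 (adjusted p = 0.00579). The Ctsh difference between 10 h and 4 h was lost without 4 h replicate 2 or 3 or 10 h replicate 2 or 3, with a highest adjusted p of 0.122. The others passed without any 1 array.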

How the results depend on the processing

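Of 104 counts of lysosomal genes past the test under alternatives other than an array left out, 92 stayed within 1.5 times. With the replicate number as a block, 6 genes passed at 4 h and 15 in the F test, and all 27 single calls held. It added Ctsc (adjusted p = 0.0295) and Scarb2 (0.0201) at 10 h, Glb1 (0.0378), Psap (0.0293) and Scarb2 (0.0339) at 24 h, Lgmn (0.0187) from 4 h to 10 h and Atp6v1a (0.0223) from 10 h to 24 h. Taking the probe set of largest variance or the mean of all probe sets left 1 call from 2 h to 4 h, where the step of Atp6v0a1 no longer passed. The Mcoln1 difference at 10 h turned to 0.46 (adjusted p = 0.0775) and 0.0327 (adjusted p = 0.866) under them. Without the intensity trend, 5 genes passed at 10 h, 0 from 4 h to 10 h and 0 from 10 h to 24 h. With only the arrays of the groups compared, 6 passed at 10 h and 1 from 4 h to 10 h. With arrays centred on the median, 6 passed at 4 h, 1 from 4 h to 10 h and 1 from 10 h to 24 h. The causes were not tested. With each array left out in turn, 0 genes passed at 1 h and at 2 h, 2 to 4 at 4 h, 6 to 11 at 10 h, 7 to 9 at 24 h, and 8 to 10 in the F test. For the steps between neighbouring times the counts were 0 to 0, 2 to 2, 1 to 3 and 2 to 2. The count of 6 at 10 h came without 10 h replicate 2, and the step count of 1 without 4 h or 10 h replicate 2 or 3. At 10 h, Ctsl lost its call without baseline or 10 h replicate 2, Lgmn without 10 h replicate 2 or 3 or baseline replicate 3, and Gusb without 10 h replicate 3. Over the 27 single calls, an array left out ended a call in 37 cases and kept it in 449, with no sign turned. With group means taken off, each array was correlated with the arrays of the other groups. For all 18 arrays the mean correlation was highest with arrays of their own number, a hint from the data only. The median standard error of the lysosomal genes, 0.0511 log2 from 3 arrays a group, limits which differences could be called.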
